A study of Mus musculus with 8 samples.

Results

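The regions described here are stretches of open chromatin that were selective for airway secretory nuclei, over the other nuclei defined below, in cultures grown from mouse lung. Open chromatin was read by single-nucleus ATAC-seq, in which a transposase cuts accessible DNA, together with nuclear RNA from the same nuclei (10x multiome). The regions were chosen by the ATAC counts themselves. Airway nuclei were those with at least 1000 RNA molecules (UMIs), at least 100 UMIs per 10000 from Scgb3a1, Bpifa1, Scgb1a1, Scgb3a2 and Cyp2f2 together, and fewer than 3 UMIs of Foxj1. Other nuclei had fewer than 50 per 10000 from the same 5 genes and came from the 2 barcode prefixes that held most airway nuclei. A peak was a member when it had at least 20 counts in the airway nuclei and when its share of all airway counts was at least 4 times its share of all other counts. This took in 766 of 116068 peaks. Of the 17645 peaks with at least 20 airway counts (tested peaks), 4.34% met the ratio, and that count is set by the rule and is no finding.

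The cultures were alveolarspheres, which are spheres of type II alveolar cells (ATII, the surfactant-making cells of the alveolus) of young and old mice, grown without serum or feeder cells. On day 9 they received an AAV9 virus that carried Sox9 with Cre recombinase (genotype Sox9Cre, treatment Sox9 overexpression) or Cre alone (genotype Cre, treatment control), and then spent 4 days in a medium that turns ATII cells into flat alveolar type I (ATI) cells. Live tdTomato+ cells of both arms were sorted before the nuclei were taken, and the 8 samples form 4 groups of 2, namely Sox9-Cre ATAC, Sox9-Cre RNA, Cre ATAC and Cre RNA. The sources used here do not give which cells can carry tdTomato, the age of the mice behind each sample or the number of mice pooled. The deposited matrices pool all nuclei under 4 barcode prefixes, called libraries A to D here. None of the labels says which prefix belongs to which sample, so Sox9-Cre and Cre nuclei were not compared and the data count as 1 sample with no p-values.

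Airway secretory (club) cells line the conducting airways, where they release secretoglobins and antimicrobial proteins and metabolise inhaled compounds with cytochrome P450 and related enzymes. Their genes, like those of other cell types, are controlled by promoters at transcription starts and by enhancers that can lie far away in introns or between genes. An enhancer is commonly open in the cell types that use it and closed in others, while many promoters are open in most cells.

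The airway nuclei numbered 106, with 51 in library C, 53 in library D and 2 in library A, against 5018 other nuclei (3162 in C and 1856 in D) out of 7224 in all. The airway nuclei held 1140028 ATAC counts (median 8398 a nucleus) and the other nuclei 62728862 (median 11017), and their median RNA depth was 14260 and 11272 UMIs. Library C gave 31.6% and library D 65.4% of the airway counts, against 54.3% and 45.7% of the other counts. The sum of the 5 genes ranged from 100 to 2319 UMIs per 10000 in airway nuclei, with a median of 496. Across the nuclei, 20 barcode sequences occurred in more than 1 library. All intervals are 95% exact counting intervals, which cover counting error only, since nuclei of a culture are not replicates.

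The RNA of the airway nuclei was checked against marker lists. The gene lists used here and below were chosen with earlier results of these data known. Shares of listed genes are therefore not independent of these data. Leaving out the 5 genes of the rule, 36 of 41 airway secretory genes with enough UMIs (at least 30 in both groups together) had at least 3 airway UMIs and were at least 2-fold higher in airway nuclei, and 1 was at least 2-fold lower. Ttr passed the fold only because counts under 3 were set to 3, with 0 UMIs in airway nuclei and 30 in other nuclei. The 16 ATII markers summed to 86.3 UMIs per 10000 in airway nuclei and 523 in other nuclei, so alveolar RNA was lower but present. Sftpc, the surfactant protein that defines ATII cells, stood at 37.0 and 418 UMIs per 10000. The 20 ciliated markers summed to 1.55 and 1.52 UMIs per 10000. Of the 5 basal cell markers with enough UMIs, 3 were at least 2-fold higher in airway nuclei, namely Trp63, the basal cell transcription factor (48.0-fold, 74 UMIs against 59), Dapl1 (13.1-fold, 11 against 32) and Pdpn (4.34-fold, 57 against 502). The other tested markers did not reach 2-fold, with Itga6 at 0.756-fold and Krt17 at 0 UMIs in airway nuclei and 99 in other nuclei. Krt5, Krt14, Ngfr and Aqp3 were too low to test, with 0 UMIs in airway nuclei and 2, 4, 13 and 17 in other nuclei. Free RNA and doublets can both put RNA of 1 cell type into nuclei of another, and their part in these levels was not tested.

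The few members over an annotated promoter show most directly which genes the set touches, and 6 of them are printed here because their letters lie under a member peak. Each sequence is the 250 bases before the transcription start, from RefSeq on GRCm38.p6, on the gene's own strand. Capitals mark exact matches, on either strand, to the short motifs searched. Fmo2, a flavin monooxygenase of lung, lies on the minus strand (chr1:162898494-162898743). Gstm2, a glutathione transferase, is on the minus strand (chr3:107986421-107986670). Adh7, an alcohol dehydrogenase that also oxidises retinol, is on the plus strand (chr3:138217523-138217772). Sox2, the transcription factor of airway epithelium, is on the plus strand (chr3:34649745-34649994). Vtcn1, a B7 family surface protein that restrains T cells, is on the plus strand (chr3:100825209-100825458). Plekhs1, a pleckstrin homology domain protein, is on the plus strand (chr19:56461387-56461636).
Fmo2: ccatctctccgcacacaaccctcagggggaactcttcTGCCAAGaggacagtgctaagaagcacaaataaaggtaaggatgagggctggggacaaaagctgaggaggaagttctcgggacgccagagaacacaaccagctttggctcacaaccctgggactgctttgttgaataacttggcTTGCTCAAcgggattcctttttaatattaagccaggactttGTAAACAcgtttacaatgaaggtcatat
Gstm2: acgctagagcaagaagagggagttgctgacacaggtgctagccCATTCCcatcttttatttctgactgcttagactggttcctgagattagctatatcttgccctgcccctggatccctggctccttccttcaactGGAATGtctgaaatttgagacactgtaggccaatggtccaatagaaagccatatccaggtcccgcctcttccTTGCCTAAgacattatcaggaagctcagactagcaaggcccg
Adh7: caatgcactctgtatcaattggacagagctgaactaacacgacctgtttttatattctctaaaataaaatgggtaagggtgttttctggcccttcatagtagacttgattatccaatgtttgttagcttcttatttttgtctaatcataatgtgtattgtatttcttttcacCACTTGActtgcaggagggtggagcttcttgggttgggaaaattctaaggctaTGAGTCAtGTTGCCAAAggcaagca
Sox2: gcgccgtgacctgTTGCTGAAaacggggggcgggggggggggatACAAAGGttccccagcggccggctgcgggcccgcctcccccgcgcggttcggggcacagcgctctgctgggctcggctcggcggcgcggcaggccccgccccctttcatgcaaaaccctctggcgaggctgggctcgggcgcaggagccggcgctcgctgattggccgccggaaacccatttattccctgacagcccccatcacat
Vtcn1: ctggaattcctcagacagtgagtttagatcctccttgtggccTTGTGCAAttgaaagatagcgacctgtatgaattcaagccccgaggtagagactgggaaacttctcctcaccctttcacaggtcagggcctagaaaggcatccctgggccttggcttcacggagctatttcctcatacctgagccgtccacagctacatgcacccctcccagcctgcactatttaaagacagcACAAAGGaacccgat
Plekhs1: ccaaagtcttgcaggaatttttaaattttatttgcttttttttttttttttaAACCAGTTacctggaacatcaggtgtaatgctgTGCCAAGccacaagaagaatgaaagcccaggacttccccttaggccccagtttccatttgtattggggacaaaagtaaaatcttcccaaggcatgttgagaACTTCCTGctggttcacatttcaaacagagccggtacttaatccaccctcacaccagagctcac

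In these letters Fmo2 carried an NFI match 213 bases, a CEBP match 69 bases and a FOX match 28 bases before the start. Gstm2 carried TEAD matches at 207 and 114 bases and a CEBP match at 42 bases. In Adh7 an NKX2-1 match lay 78 bases and an AP-1 match 25 bases before the start, and an RFX match at 17 bases overlapped a CEBP match at 16 bases. Sox2 held CEBP and SOX matches at 237 and 206 bases, and Vtcn1 held the same pair of motifs at 208 and 15 bases. Plekhs1 had a GRHL match at 198 bases, an NFI match at 165 bases and an ELF match at 64 bases.

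Member peaks overlapped 25 promoters of the RefSeq table, and 13 motifs were searched in the 250 bases before the start. The 25 are not all separate cases, since Vtcn1 and Gm32720 lie under the same peak, as do 4930434B07Rik and Iqca. CEBP (TTGCNNAA, where N is any base) occurred in 8 of the 25 (32.0%), against 6.53% of the 9724 promoters under tested peaks and 9.56% of all 32851 promoters. NFI (CTTGGCA) and AP-1 (TGANTCA) each occurred in 5 (20.0%), against 3.40% and 3.52% of promoters under tested peaks and 4.78% and 6.75% of all promoters. FOX (TGTTTAC) occurred in 3 (12.0%), against 1.88% under tested peaks and 3.17% of all. SOX (CCTTTGT), ELF (CAGGAAGT) and RFX (GTTGCCA) also occurred in 3 each, against 3.21%, 2.33% and 3.19% under tested peaks and 5.08%, 2.69% and 3.66% of all. The SOX matches of Vtcn1 and Gm32720 are the same bases read on opposite strands. TEAD (GGAATG) was in 4 (16.0%), against 9.48% and 12.6%. NKX2-1 (CACTTGA), GRHL (AACCNGTT) and KLF (GGGTGTGG) were in 1 each (4.00%), against 1.34%, 1.41% and 3.49% under tested peaks and 2.68%, 1.79% and 3.20% of all. HNF1 (GTTAATNA) and ETS (CCGGAAGT) were in 0 of 25, against 0.905% and 7.40% under tested peaks and 2.33% and 2.88% of all. The member promoters had a median GC content of 49.6%, against 62.8% under tested peaks and 52.4% over all promoters, and the part of base composition in these shares was not tested. A match is only a run of letters and was not read as a binding site.

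The ratio of airway to other nuclei, which chose the members, ranged from 4.00 to 140 with a median of 6.09. The middle of the set was close to the threshold, with quartiles of 4.82 and 9.23. Ratios of at least 6 were reached by 393 members, at least 10 by 169 and at least 20 by 38. Counts were small. The airway count had a median of 26 and a highest value of 59, and the median count in the far larger pool of other nuclei was 234. Scaled to depth, the median member had 22.8 CPM (counts per 1000000 counts in peaks of the group) in airway nuclei and 3.73 in other nuclei, whereas the median tested peak had 28.9 and 26.0. A member was seen in a median of 21 airway nuclei (19.8%) and in 4.21% of the other nuclei, with between 1 and 6 counts in the airway nucleus that gave most. Counting each peak as 0 or 1 per nucleus gave 366 members, of which 362 were among the 766.

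**Figure D1:**
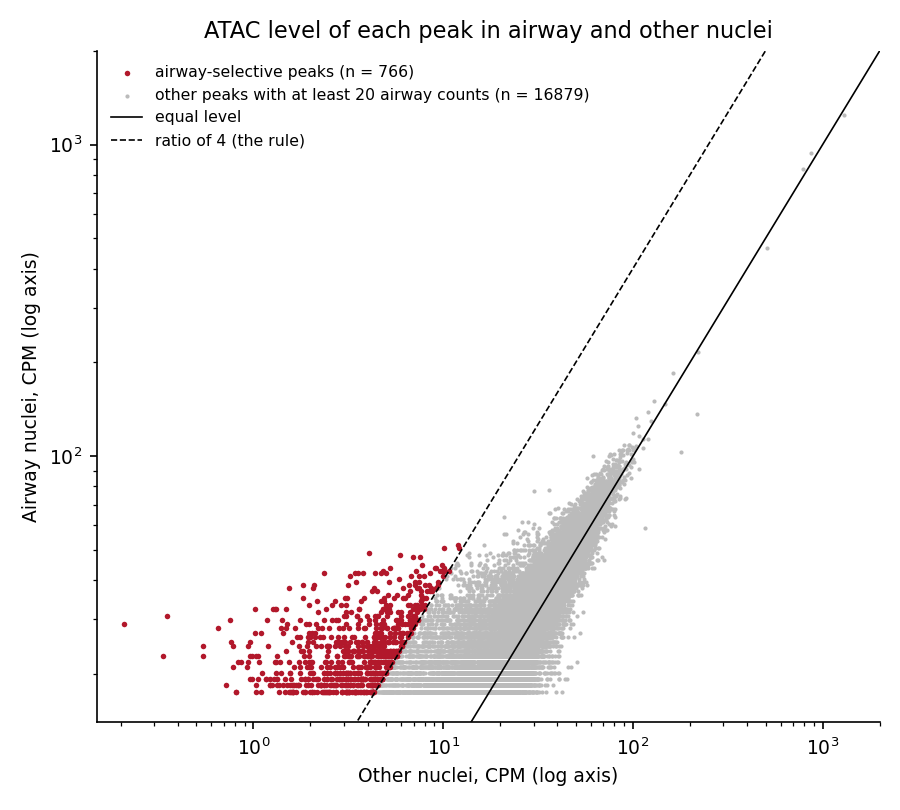
ATAC CPM of each tested peak in airway nuclei (vertical, log axis) and in other nuclei (horizontal, log axis), with the 766 airway-selective peaks in red and the dashed line at the ratio of 4 that chose them. The airway-selective peaks lie at the low end of the level in other nuclei, between 0.207 and 12.1 CPM, and reach 51.8 in airway nuclei.

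The threshold cut through a continuous range. Just inside it, peaks near Gm35190, Cxcl17 and Fndc3b had ratios of 4.002, 4.007 and 4.007. Just outside, peaks near Fgd2, Card10 and Pacs1 had 3.998, 3.998 and 3.995. At the count threshold, 75 members had exactly 20 airway counts, while 84 peaks that met the ratio had 19 and were left out. Among them were peaks near Bcas3 (ratio 20.1), Gm26871 (18.34) and 2210409D07Rik (18.03), beside members with 20 counts near 9330117O12Rik and at 2 places near Ugt2a1 (21.58, 21.58 and 16.93).

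The median ratio of members was 6.31 in library C and 6.41 in library D. Single members ranged from 0 to 260 in library C and from 2.45 to 105 in library D. In library C 749 of the 766 members were at least 2-fold higher in airway nuclei and 634 at least 4-fold, and in library D all 766 and 709. Both libraries reached 4-fold in 577. Applied without library C the rule gave 355 members, and without library D 30. Since the members were chosen on the sum of both libraries, the rule was also run in each library alone and the chosen peaks were then read in the other. Of 354 peaks found in library D, 232 (65.5%, interval 60.3 to 70.5) were at least 4-fold higher in library C, which that choice had not used, with a median ratio of 5.26. Of all 10403 peaks tested in this way, 2.66% were 4-fold higher in library C. In the other direction library C, with fewer counts, gave 25 peaks, of which 11 (44.0%, 24.4 to 65.1) were 4-fold and 24 (96.0%) 2-fold higher in library D, against 0.499% and 2.00% of 2203 tested peaks.

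**Figure D2:**
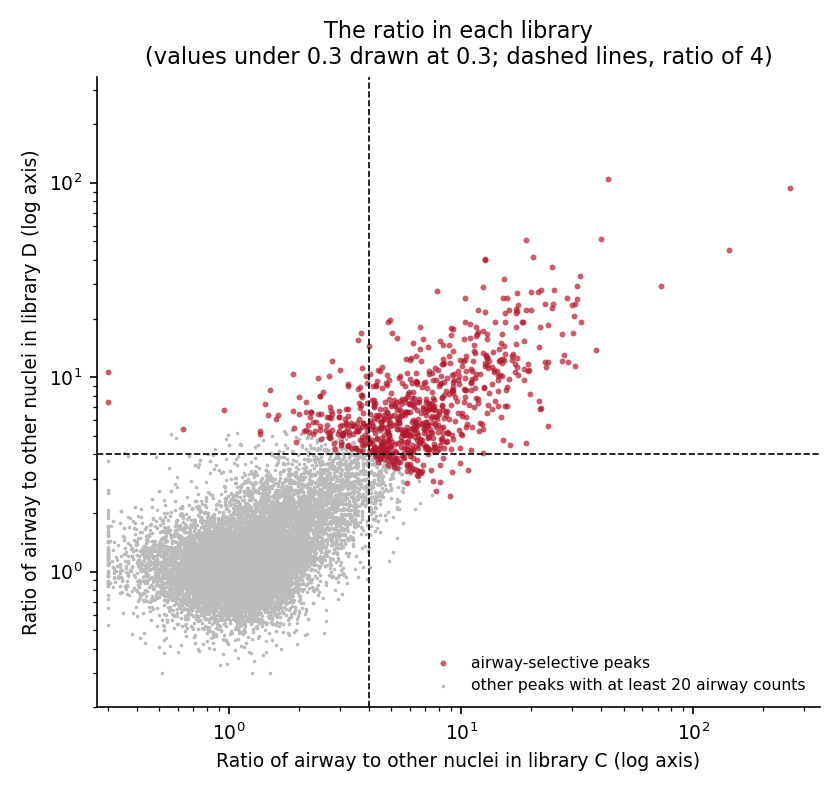
Ratio of airway to other nuclei for each tested peak in library C (horizontal) and library D (vertical), both on log axes, with the airway-selective peaks in red and dashed lines at 4. Most red points (577 of 766) lie above 4 in both libraries, and the gray points centre near 1.

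The genes of the rule were themselves unevenly covered. Scgb1a1, the main secretoglobin of club cells, had a member over its start (chr19:9087703-9088605), with 8 counts in library C and 13 in library D of airway nuclei, against 134 and 130 in other nuclei, a ratio of 4.38 (2.66 to 6.83). Scgb3a2, another secretoglobin, also had its start in a member, with 7 and 16 airway counts against 123 and 106, a ratio of 5.53 (3.43 to 8.50). Both start peaks were thus low in absolute terms, at 18.4 and 20.2 CPM in airway nuclei and 4.21 and 3.65 in other nuclei. Cyp2f2, the P450 enzyme of club cells, had 3 members between 9159 and 27174 bp from its start, with ratios of 4.97, 7.59 and 4.85. The peak over the Cyp2f2 start itself had 17 airway counts and a ratio of 4.54 and missed the count of 20. Scgb3a1 and Bpifa1, the other pair of rule genes, had no member within 50000 bp. The nearest case was a peak 26982 bp from Bpifa1 with 19 counts and a ratio of 7.74 (4.52 to 12.6).

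Among genes of xenobiotic metabolism, 10 of 25 with enough UMIs had a member within 50000 bp, against 6.10% of all 14706 genes tested. The list shares Cyp2f2 with the rule. Over the Fmo2 promoter shown above, the peak (chr1:162897996-162898990) held 13 airway counts in library C and 21 in library D, against 82 and 80 in other nuclei. Its ratio was 11.5 (7.73 to 16.8), with 29.8 CPM in airway nuclei and 2.58 in other nuclei. Fmo2 RNA was 192-fold higher in airway nuclei (145 to 258), with 301 UMIs against 60.

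The Gstm2 promoter peak had 8 and 20 airway counts in libraries C and D, against 131 and 117, a ratio of 6.43 (4.22 to 9.47). Gstm2 RNA was 24.1-fold higher. The Adh7 promoter peak had 4 and 21 airway counts, against 128 and 130, so its ratio was 2.96 in library C and 6.21 in library D. Adh7 RNA was 61.5-fold higher (47.4 to 80.1). Por, the reductase that passes electrons to P450 enzymes, had a member in its gene body (ratio 5.70, 3.65 to 8.55) and 2 more members within 50000 bp lay nearer to the gene Rhbdd2. These 3 together held 111 airway and 725 other counts (ratio 8.42). Por RNA was 9.74-fold higher in airway nuclei. Cyp1b1, Cbr2 and Aldh1a1, which also process foreign or reactive compounds, had 1 member each within 50000 bp, in each case with another gene nearer to it, and RNA that was 14.3-fold, 193-fold and 13.2-fold higher. Gstm1 is counted among the 10 genes through the Gstm2 promoter peak, so neighbours in a list can share a member.

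Secreted and surface defence genes formed another group, with 5 of 24 (20.8%) having a member within 50000 bp, against the same 6.10% of all genes tested. Cp encodes ceruloplasmin, a secreted copper-carrying oxidase. A member 10559 bp from its start (chr3:19945576-19946495) had 19 and 36 airway counts in libraries C and D, against 132 and 123 in other nuclei, a ratio of 12.1 (8.88 to 16.2). A second member 2553 bp from the start had a ratio of 5.59 (3.93 to 7.74). Cp RNA was 126-fold higher (120 to 133).

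Ltf encodes lactoferrin, an iron-binding antimicrobial protein, and had a member 4780 bp from its start with a ratio of 7.66 (4.92 to 11.5) and RNA that was 175-fold higher. Among the surface mucins, Muc4 had a member with a ratio of 19.3 (13.1 to 27.9) 26244 bp away, and Muc20 had members 914 and 5696 bp from its start with ratios of 9.95 and 4.86. Their RNA was 31.8-fold and 118-fold higher. Lbp, which binds bacterial lipopolysaccharide, had a start peak of 58 airway counts (22 and 36 in libraries C and D), against 635 in other nuclei, a ratio of 5.03 (3.77 to 6.58). Chil4, a chitinase-like protein, had a peak 19650 bp away with 54 airway and 435 other counts (ratio 6.83). Its RNA was under the minimum of 30 UMIs, with 8 in airway nuclei and 3 in other nuclei, a fold of 102 (24.5 to 597). Other highly airway-enriched defence genes had no member in the window. Muc5b, Bpifb1 and Reg3g RNA was 1370-fold, 874-fold and 645-fold higher, and of the 5, 10 and 2 peaks within 50000 bp of them, 1, 3 and 0 reached 20 airway counts.

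Receptors and other airway markers gave some of the highest ratios beside a named gene. Gabrp, a GABA receptor subunit found in epithelia, had a member 341 bp from its start (chr11:33579298-33580251) with 13 and 31 airway counts in libraries C and D, against 77 and 54 in other nuclei. Its ratio was 18.5 (12.8 to 26.2), and Gabrp RNA was 229-fold higher (187 to 283). Tacr1, the receptor for substance P, had a member over its start (ratio 10.0, 6.05 to 15.8) and another 131125 bp away (ratio 18.3, 12.7 to 26.1), with RNA 359-fold higher. In the airway secretory list as a whole, which holds the 5 rule genes and many genes of the lists above, 16 of 46 genes (34.8%) had a member within 50000 bp, against 6.10% of all genes tested.

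Several transcription factors of airway and basal epithelium had members. The list of transcription factors had 10 of 38 genes (26.3%) with a member within 50000 bp, against 6.10%. Over the Sox2 promoter (chr3:34649387-34650309), airway nuclei had 18 and 29 counts in libraries C and D, against 291 and 242 in other nuclei, a ratio of 4.96 (3.61 to 6.67). Sox2 RNA was 43.8-fold higher (34.2 to 56.2). Trp63 had a member 83652 bp from its start with a ratio of 25.3 (16.3 to 38.4) and another inside the gene with 4.49 (3.15 to 6.23), beside RNA that was 48.0-fold higher. Elf3, an ETS factor of epithelia, had a member at 40223 bp (ratio 22.0, 13.4 to 35.2) and RNA 4.76-fold higher. Ahr, the receptor for dioxin-like compounds, was the nearest gene of 3 members at 6886, 202571 and 205415 bp from its start, with ratios of 5.20, 4.96 and 4.15, and its RNA was 4.08-fold higher. Jag1, a Notch ligand, had a member in its gene body 6132 bp from its start with a ratio of 15.8 (10.8 to 22.7), whereas Jag1 RNA stood at 0.128 UMIs per 10000 in airway nuclei and 0.159 in other nuclei. It was the only one of 9 tested Notch genes with a member in the window (11.1%, against 6.10%).

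Members also lay beside genes of other cell types. Of 16 ATII genes 4 had a member within 50000 bp, of 17 ATI genes 2, of 20 ciliated genes 2, of 16 genes of the transitional state between ATII and ATI cells 1, and of 5 tested basal genes 2. Against the 6.10% of all genes tested, the ATI (11.8%), ciliated (10.0%) and transitional (6.25%) shares are close to that background. The ATII share (4 of 16) and the basal share (2 of 5) were higher, but rest on 4 and 2 genes. The ATII share lay above that of the secreted defence list (20.8%). It lay below those of the transcription factor (26.3%) and airway secretory (34.8%) lists. The tested mesenchymal, endothelial, immune and neuroendocrine genes (4, 2, 4 and 3) had 0. Hc, the complement C5 gene on the ATII list, had a member 7609 bp from its start with a ratio of 4.56 (3.17 to 6.39), while its RNA amounted to 11 UMIs in airway nuclei, against 5142 in other nuclei (0.0818-fold, 0.0408 to 0.146). Rprm, Magi1 and Myzap were also among the nearest genes with the lowest RNA folds, at 0.168, 0.195 and 0.199. Their members had ratios of 5.73, 4.06 and 5.46 and lay 129854, 73680 and 66365 bp from the starts, the last inside the gene Cgnl1. Krt19, a keratin on the transitional list, was the nearest gene of 3 members (the highest ratio was 8.73), and its RNA was 1.74-fold higher. Pdpn, which is on both the ATI and the basal list, had a member with a ratio of 6.08 and RNA 4.34-fold higher.

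For most members with the highest ratios, the nearest start was distant or belonged to an uncharacterised gene. The first (chr15:24468228-24469134) had 11 and 22 airway counts in libraries C and D, against 4 and 9 in other nuclei, a ratio of 140 (71.6 to 289), and lay 553789 bp from the nearest start. The next (chr9:5528897-5529837), 183421 bp from Casp12, an inflammatory caspase, had 35 and 22 counts and a ratio of 87.5 (49.9 to 157). The third (chr5:16791244-16792071) lay over the start of the uncharacterised gene Gm28710, with 26 and 21 counts, a ratio of 68.1 (36.9 to 127) and RNA 78.4-fold higher (44.9 to 141). Ratios between 31.4 and 45.3 followed at peaks whose nearest genes were Gm12121, Abcc4, C530043A13Rik, Gm20319, Tbx18 (201753 bp away), Lpp and Pik3c2g. Of these, Abcc4, a drug efflux pump, Lpp, a focal adhesion protein, and Pik3c2g, a lipid kinase, had enough UMIs, and their RNA folds of 1.27, 0.607 and 0.211 did not reach 2. The peaks of Abcc4, Lpp and Pik3c2g lay in the gene bodies, 87112, 77848 and 5342 bp from the starts.

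**Figure D3:**
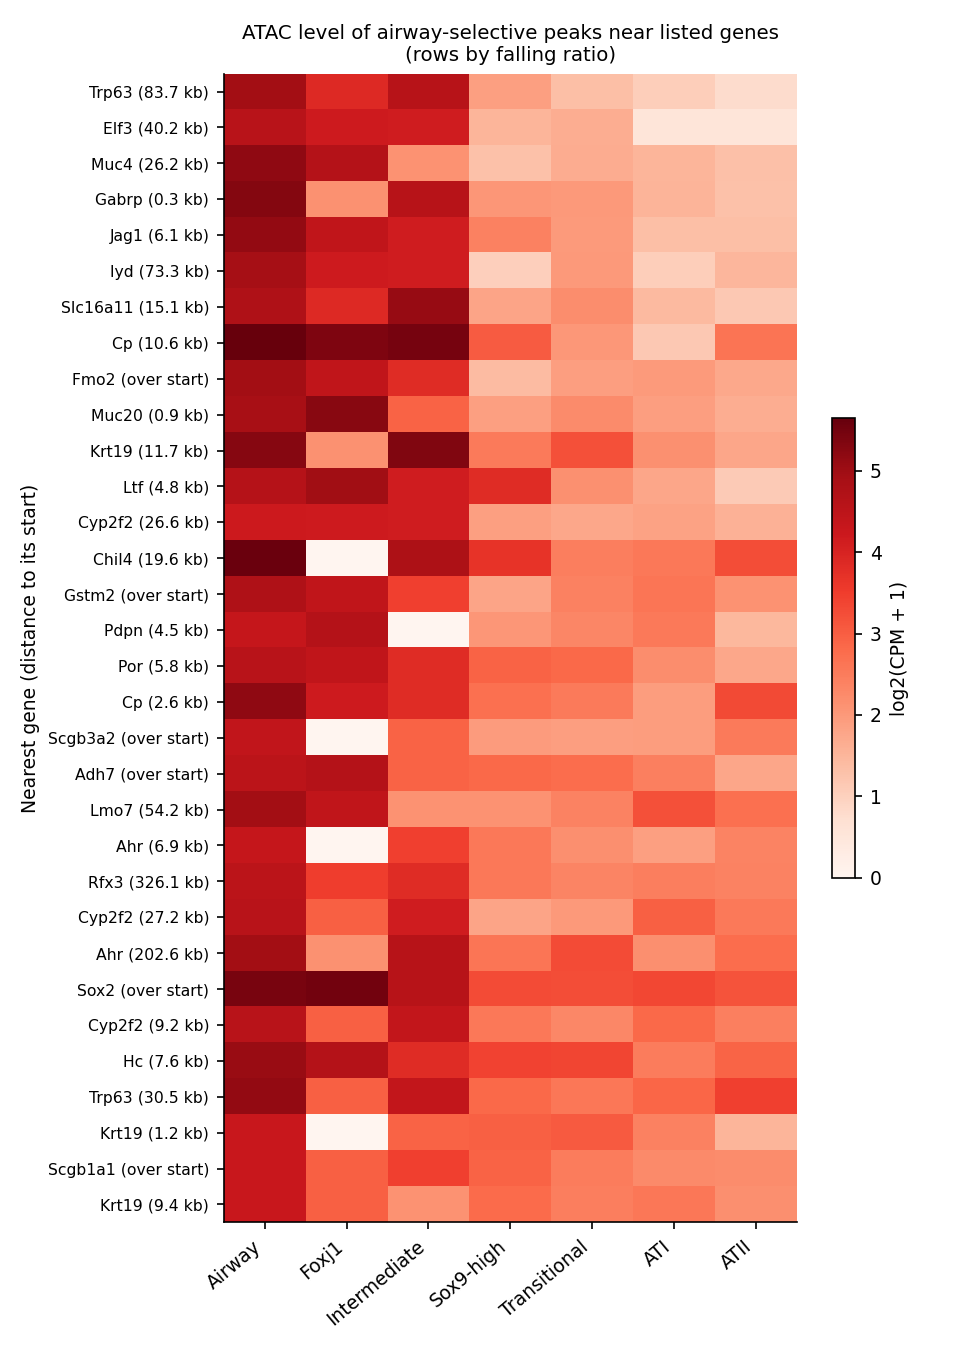
Level of most airway-selective peaks nearest to listed genes or to the genes of the rule, as log2(CPM + 1), in airway nuclei and in 6 classes of nuclei that did not meet the airway rule, with rows ordered by falling ratio. The airway column was used in choosing the rows, and several rows, such as Muc20 and Sox2, are nearly as dark or darker in Foxj1 nuclei, while Chil4 and Scgb3a2 are at 0 there.

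Position was not used by the rule, and members lay away from transcription starts. Within 2000 bp of a start lay 60 members (7.83%, interval 6.03 to 9.97), against 61.0% of tested peaks. A further 379 (49.5%) lay in a gene body, against 22.7% of tested peaks, and 327 (42.7%) between genes, against 16.1%. For the genes without a strand in the sources used here, either gene end counted as a start. The share of tested peaks that were members was 0.271% over a start, 2.25% up to 2000 bp, 6.99% from there to 10000 bp, 9.69% up to 50000 bp and 16.1% beyond. The median level in other nuclei ran down the same bins, at 33.7, 22.4, 18.9, 16.7 and 14.5 CPM and its part in the rise was not tested.

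Members were scattered rather than stacked. Alone within 50000 bp were 657 of them, and the other 109 formed 52 groups, of which 47 were pairs and 5 held 3 members each. The groups of 3 lay near Por, between Snx13 and Ahr (at least 202571 bp from the Ahr start), near Krt19, in Wdr72, a WD repeat protein gene, and beside Cyp2f2. Tns3, a tensin of focal adhesions, was the nearest gene of most members (4, ratios 4.10 to 6.53), and its RNA was 2.51-fold higher. Bmpr1b, a BMP receptor, was nearest to 3 members with ratios of 10.8, 10.8 and 6.83, beside RNA 12.6-fold higher. By chromosome, 6.98% of tested peaks on chromosome 16 and 1.81% on chromosome X (4 of 221) were members, the highest and the lowest share among the autosomes and X.

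RNA of the nearest genes was not used to choose the peaks, apart from the genes of the rule, although the same nuclei gave both. The 766 members had 694 distinct nearest genes, of which 230 had too few UMIs and 3 were genes of the rule. Of the 461 tested, 180 (39.0%, interval 34.6 to 43.7) were at least 2-fold higher in airway nuclei, against 11.0% of the 10460 nearest genes of all tested peaks. In both libraries 164 were so, against 1007 of the 10460. Since counts under 3 were set to 3, some of these genes passed with hardly any airway RNA, 15 of the 180 with 0 airway UMIs and 25 with under 3. All 25 also passed in both libraries, where the same floor was applied, so the agreement of the libraries is partly built in. Asking also for at least 3 airway UMIs, a condition added after seeing the data, gave 155 of 461 (33.6%, 29.3 to 38.1), against 7.64%. Of the 155, 139 passed in both libraries, against 655 of the 10460, with the floor within each library kept. At least 2-fold lower were 36 (7.81%, 5.53 to 10.6), against 10.5%. The median RNA fold was 1.42, against 0.871 for all tested peaks, and the other 245 genes lay between the limits. At least 4-fold higher were 104 (22.6%), against 3.38%. Of the genes with a member over a start, 14 of 15 were at least 2-fold higher (93.3%, 68.1 to 99.8), against 7.96% of the genes with any tested peak over the start, and 13 of 15, against 6.32%, with at least 3 airway UMIs. From 2000 to 10000 bp the share was 48.4%, up to 50000 bp 34.8% and beyond 38.4%, against 17.9%, 18.0% and 19.7% for tested peaks in the same bins.

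The genes of members over a start included Fmo2, Tacr1, Vtcn1, Gstm2, Adh7, Lbp and Sox2, together with Lox, a collagen cross-linking enzyme (RNA 42.4-fold higher), Stc2, a secreted stanniocalcin (67.5-fold), Cxcl17, a chemokine of mucosal surfaces (35.6-fold), and Plcb4, a phospholipase (5.71-fold). The exception among the 15 was the uncharacterised Gm36264, at 1.53-fold. Vtcn1 had a second member 3646 bp from its start, with ratios of 6.79 and 7.05 at the 2 peaks and RNA 33.2-fold higher (26.1 to 42.2). Plekhs1, whose promoter is printed above, was too low to test. Its start peak had a ratio of 12.9, with 38 airway and 162 other counts, but 0 Plekhs1 UMIs were found in airway nuclei and 20 in other nuclei.

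**Figure D4:**
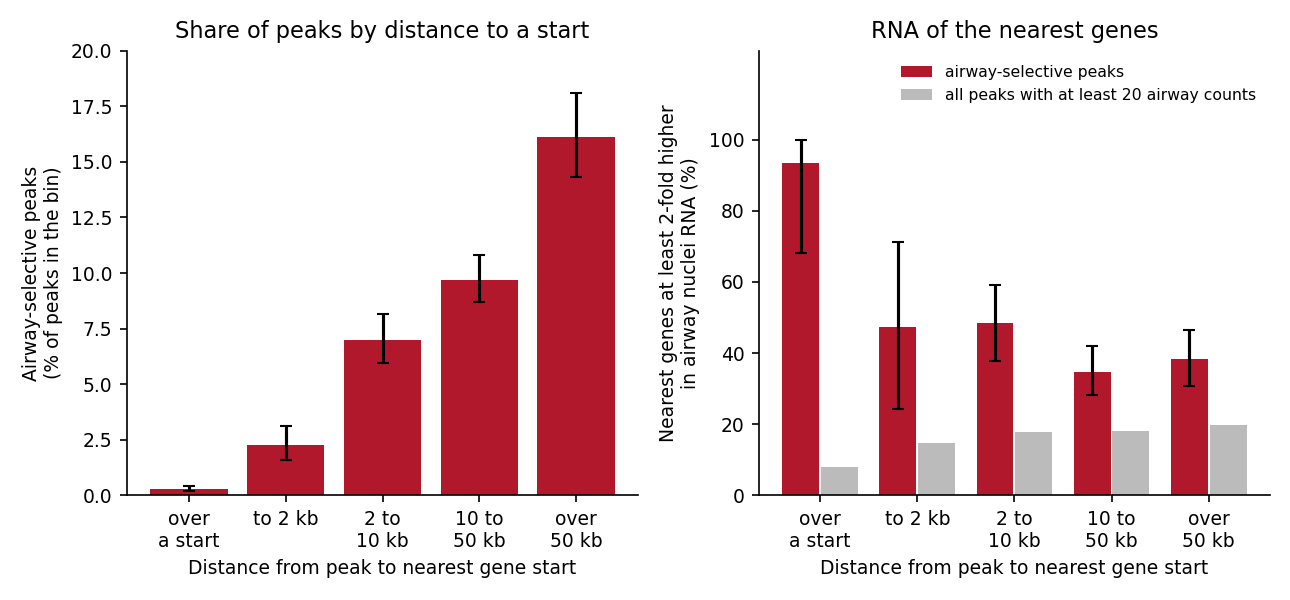
Left, share of tested peaks that were airway-selective, by distance to the nearest gene start. Right, share of nearest genes at least 2-fold higher in RNA of airway nuclei, for airway-selective peaks (red) and all tested peaks (gray), in the same bins. Bars on the red columns are 95% counting intervals, and the left shares run between 0.271% and 16.1% while the red share is highest over a start at 93.3%.

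Among the nearest genes, those with the highest RNA folds after the rule genes were Tacr1, Gabrp, Fmo2, Sulf1, Ltf, Angpt1, Cp, Chad, Muc20 and Acpp. Sulf1, which trims heparan sulfate, had 2 members in its gene body (ratios 12.9 and 8.27) and RNA 186-fold higher. Angpt1, a ligand of the Tie2 receptor, had a member in its gene body with a ratio of 17.8 and RNA 160-fold higher. Acpp, an acid phosphatase, and Chad, a cartilage matrix protein also listed as an airway marker, had members with ratios of 14.1 and 5.94 and RNA 80.6-fold and 119-fold higher. Read from the RNA side, 135 of 578 genes at least 4-fold higher in airway nuclei (23.4%) had a member within 50000 bp, against 639 of 12420 genes (5.14%) under 2-fold. A higher ratio did not go with a clearly higher RNA share. Genes next to members with ratios from 4 to 6 were 2-fold higher in 39.6% (33.4 to 46.0), from 6 to 10 in 36.7% (28.9 to 45.1) and from 10 in 47.1% (37.2 to 57.2).

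Foxj1 nuclei, which express the master regulator of motile cilia, lay outside the airway group and so show the members in other nuclei. In libraries C and D, 0 of them reached the airway sum of 100 UMIs per 10000. The 21 nuclei with at least 3 Foxj1 UMIs in libraries C and D held 294586 ATAC counts, and 14 of them had counted among the other nuclei of the rule. Their ciliated markers summed to 86.0 UMIs per 10000, against 1.52 in other nuclei, and their airway secretory markers to 237, against 51.6. The airway list holds the 5 rule genes, and its genes went both ways. Wfdc2 (52.8, against 13.7) and Cbr2 (33.0, against 0.556) were higher in Foxj1 nuclei. Scgb1a1 (0.184, against 0.404) and Scgb3a2 (0.0230, against 0.0822) were lower. Members took up 1.17% of the counts of Foxj1 nuclei (1.13 to 1.21), which is 3.96-fold the share in other nuclei without Foxj1 (3.83 to 4.10). At least 2-fold higher than in other nuclei were 584 members (76.2%), against 9.57% of all tested peaks. The counting interval lay above 1 for 394 members (51.4%), against 7.59% of tested peaks. The median fold was 3.77, on a median of only 4 counts a peak, and 37 members had 0 counts. The upper bound of the Foxj1 fold lay under the airway ratio for 139 of the 766 members. For most members a level lower than in airway nuclei could thus not be shown at these counts. The Foxj1 folds divide by the other nuclei, where the rule set members low (median 3.73 CPM, against 26.0 for tested peaks). The comparison with tested peaks is therefore not independent of the rule.

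Counts of single members in Foxj1 nuclei were small. The Sox2 promoter peak held 13 counts there, 5.26-fold the level of other nuclei (2.78 to 9.08), and the Muc20 peak nearest its start held 11 counts, 13.7-fold higher (6.73 to 25.2). The peak in the Abcc4 gene body reached 84.9-fold (39.6 to 171) with 12 counts. At the other end, the Chil4 peak had 0 counts, with an upper bound of 1.81-fold, and the Gabrp peak 1 count, 1.63-fold with an upper bound of 9.26. The Scgb3a2 start peak also had 0 counts (upper bound 3.45-fold) and the Scgb1a1 start peak 2 counts (1.62-fold, 0.195 to 5.91).

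Nuclei with an intermediate level of the 5 genes, from 50 to under 100 UMIs per 10000, were in neither group of the rule. The 26 such nuclei of libraries C and D held 302770 ATAC counts, and members took up 1.14% of them, 3.86-fold the share in other nuclei without Foxj1 (3.73 to 3.99). At least 2-fold higher were 613 members (80.0%), against 9.74% of tested peaks, and the interval lay above 1 for 387 (50.5%), against 8.02%. The median fold was 3.56, and its upper bound lay under the airway ratio for 126 members. The airway markers of intermediate nuclei summed to 274 UMIs per 10000 and their ATII markers to 80.8, against 51.6 and 523 in other nuclei. The airway list holds the 5 genes that chose both groups, so part of that gap is set by the choice. Whether some intermediate nuclei are doublets was not tested. As with Foxj1 nuclei, the folds divide by the other nuclei, where the rule set members low. The comparison with tested peaks is thus not independent of the rule here either.

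The share of counts in members ran with the RNA level of the 5 genes across all nuclei of libraries C and D without Foxj1. It was 0.287% under 5 UMIs per 10000, 0.336% from 5 to 10, 0.458% from 10 to 25 and 0.808% from 25 to 50. It was then 1.14% from 50 to 100, 1.65% from 100 to 500 and 2.18% above that. The last 2 bins hold the airway nuclei that chose the peaks, and the first 4 hold the other nuclei, whose counts the rule also used, so the order is a description.

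Within single nuclei, members took up a median of 2.03% of ATAC counts in the 101 airway nuclei with at least 1000 counts. The median was 1.25% in Foxj1 nuclei, 1.08% in intermediate nuclei and 0.264% in 4571 other nuclei without Foxj1. The 10th percentile of the airway nuclei was also 1.25%, a level reached by 10 of 21 Foxj1 nuclei, 10 of 24 intermediate nuclei and 8 of the other nuclei (0.175%). Of those 8, 7 were of the transitional class and 1 was Sox9-high. The airway secretory list without the rule genes summed to between 86.6 and 366 UMIs per 10000 in these 8 nuclei, against medians of 597 in airway nuclei and 40.7 in all other nuclei. The airway nuclei of library A were also above the other nuclei, but by less. The 2 nuclei together had 168 of 34513 counts in members (0.487%, 0.416 to 0.566), against 0.230% in library A's other nuclei. That is 2.12-fold (1.81 to 2.46), against 6.46-fold in library C and 6.65-fold in library D. Of these 2 nuclei, 1 had under 1000 counts, so the share is in effect that of 1 nucleus. Without the airway nuclei of library A the rule gave 778 members.

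**Figure D5:**
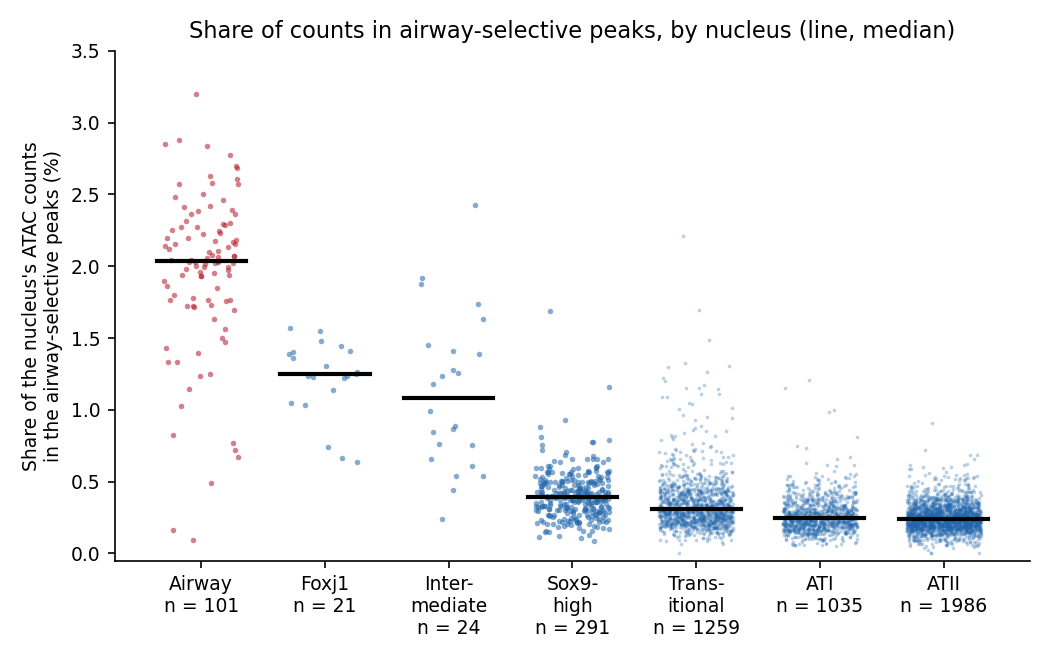
Share of each nucleus's ATAC counts that fell in the airway-selective peaks, in percent, for nuclei with at least 1000 counts. Points are nuclei and lines are medians, which are 2.03% in airway, 1.25% in Foxj1 and 1.08% in intermediate nuclei and at most 0.393% in the Sox9-high, transitional, ATI and ATII classes.

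Outside airway, Foxj1 and intermediate nuclei, members were a little more open in some classes than in others. The other nuclei were put in the class ATII, ATI or transitional by their marker sums, with nuclei of at least 5 Sox9 UMIs (Sox9-high) as a class of their own. Members took up 0.400% of counts in Sox9-high nuclei (0.394 to 0.405), 0.353% in transitional nuclei, 0.273% in ATI nuclei and 0.254% in ATII nuclei, and the order was the same in libraries C and D, whose counts the rule used. In library B, which had no Sox9-high nuclei, the shares were 0.293% in transitional, 0.219% in ATI and 0.222% in ATII nuclei. In library A they were 0.262%, 0.227% and 0.216%, beside 0.261% in Sox9-high nuclei on 2297 counts (0.0959 to 0.568). The highest of the 4 classes was Sox9-high for 335 members (43.7%), transitional for 239 (31.2%), ATI for 100 (13.1%) and ATII for 92 (12.0%), against 19.7%, 18.1%, 24.7% and 37.5% of tested peaks. The Ltf peak was an example, with 13.2 CPM in Sox9-high nuclei, against 1.18 in ATII nuclei, and 23.7 in airway nuclei. The rule set members low in the sum of these classes, to which ATII nuclei gave 27973755 and Sox9-high nuclei 4860898 of 62728862 counts, so the order of the classes is a description and supports nothing. All 766 members were at least as high in airway nuclei as in the highest class, by 4-fold or more in 406 and with a median of 4.13-fold, which the rule favours. Sox9-high nuclei made up the smallest class (311 nuclei) and the class levels rest on unequal depth, whose part in this order was not tested.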

How the data were processed

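Nuclei of alveolarspheres were profiled with the 10x multiome assay. The authors deposited 2 pooled matrices of raw counts, UMIs per gene and ATAC counts per peak for 7224 nuclei. The tools Signac 1.10.0, Seurat 4.3.0 and Cell Ranger 6.0.1 and the builds mm10 and GRCm38 are listed, without role or order, per the submitters' processing notes. Not given in the sources used here are the peak caller, the filter on nuclei before deposit, and whether an ATAC count is a fragment or a cut site. Lists of multiplexing oligos were left out because they name samples of other experiments.

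Counts were summed per group and divided by the group's total count in peaks. ATAC totals of the groups ran between 294586 (Foxj1 nuclei) and 62728862 counts (other nuclei). Ratios have exact conditional binomial 95% intervals and shares exact Clopper-Pearson intervals. For RNA folds a count under 3 was set to 3. RNA folds compare UMIs per 10000 of the same 2 groups, for genes with at least 30 UMIs in both together. Doublets were not called. In 1 alternative the 5% of nuclei with most UMIs were dropped. The ratio step was tested on simulated counts with known folds. These were placed only in peaks with more counts in other nuclei than any member had (at most 759), so the test does not cover the range of the members. Gene positions (82.5% of the 32285 genes) and promoters came from RefSeq tables of GRCm38.p6. No genome was given, so motifs were searched in promoters, as the design allowed. The distance of a peak is to the gene start by strand where known for the gene, otherwise to the nearer gene end.

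No comparison had replicates, so no p-value was computed and no count test was fitted. Alternatives changed the count and ratio thresholds, the airway sum, counting, scaling, depth filters, libraries, windows and fold limits. Named in the text are the members with the highest ratio or count, those near the rule genes and listed genes, those of genes with most members or with the highest and lowest RNA fold, and those at the thresholds. The members with a printed promoter, genes of the lists without a member, Vtcn1, Plekhs1, Lox, Stc2, Cxcl17, Plcb4, Gm36264, and the other enzymes Cyp1b1, Cbr2, Aldh1a1 and Gstm1, and Ttr, Dapl1 and Krt14 were picked after their values had been seen. A few members that this choice takes in are not reported here. The members and gene lists were chosen with earlier results of these data known. Python 3.11.15, numpy 2.4.6, scipy 1.17.1, pandas 2.3.3 and matplotlib 3.10.9 were used.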

Additional observations from a re-analysis of the deposited data

How the results depend on the processing

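The 766 members became 1869 at a minimum of 10 counts, 76 at 40, 1227 at a ratio of 3, 393 at a ratio of 6, 366 with each peak counted as 0 or 1 per nucleus, 355 without library C and 30 without library D. The other 6 settings kept the number within 1.5 times, between 511 (without the nuclei with the highest 5% of UMIs) and 778 (airway nuclei of libraries C and D only, an alternative chosen after seeing the data). The median fold in Foxj1 nuclei (3.77) was 3.32 at 40 counts, 2.87 at a ratio of 3, 5.38 at a ratio of 6, 3.20 at an airway sum of 200, 4.80 by mean count per nucleus, 3.39 without the highest 5% of UMIs, 3.29 without library C and 2.55 without library D. The median fold in intermediate nuclei (3.56) was 3.19 at 10 counts, 2.91 at a ratio of 3, 4.79 at a ratio of 6, 3.25 at an airway sum of 200 and 2.12 without library D. Near a start lay 7.83% of members, against 10.5% at 40 counts, 10.4% without library C, 10.0% without library D, 4.83% in a window of 500 bp and 14.2% in one of 5000 bp. The share of nearest genes higher in RNA (39.0%) was 31.5% at 10 counts, 58.3% at 40 counts, 34.1% at a ratio of 3, 44.6% with peaks as 0 or 1, 27.8% without library D, 47.5% at 1.5-fold, 22.6% at 4-fold, 31.9% from 100 UMIs, 53.2% within 10000 bp and 33.6% where a higher gene also needed 3 airway UMIs (chosen after seeing the data). Of peaks found in library D with at least 10 counts, 54.2% were 4-fold higher in library C, against 65.5% at 20 counts. The causes of these shifts were not tested. Depth limits single peaks, since the median member had 26 airway counts and 4 in Foxj1 nuclei. No paired analysis was possible because no label ties a barcode prefix to a numbered sample and no result comes from a test.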
